A study of Homo sapiens with 6 samples.

Results

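The genes described here are 50 genes of the unfolded protein response (UPR) and of protein folding, degradation and translocation at the endoplasmic reticulum (ER), out of the 58735 genes of the deposited table. They were taken by gene symbol from a fixed list, and each symbol matched 1 row. MM.1S, a line of human myeloma cells long kept in culture, was transfected with a negative control siRNA (control, 3 libraries) or with siRNA against PRMT1, a protein arginine methyltransferase (PRMT1 KD, 3 libraries). The siRNA was used at 100 nM, and RNA was collected 72 h after transfection. Which of the PRMT1 siRNAs was used is not given in the sources used here, and nothing in the labels says whether the libraries came from separate cultures. The study's methods call its replicates in general biological but dependent, so the p-values measure the spread between these libraries, which may be technical. Expression is given in FPKM, which relates the sequenced fragments to gene length and library size, and 49 of the 50 genes had a mean of at least 1 FPKM and were tested.

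Plasma cells make and secrete large amounts of immunoglobulin, and myeloma cells inherit their large ER. Proteins enter the ER through the SEC61 channel, lose their signal peptide, fold with the help of chaperones such as BiP (HSPA5) and form disulfide bonds through protein disulfide isomerases. Proteins that fail to fold are returned to the cytosol and destroyed by the proteasome, which is called ER-associated degradation (ERAD). When unfolded proteins accumulate, the sensors IRE1 (ERN1), PERK (EIF2AK3) and ATF6 switch on the UPR, in which IRE1 splices the XBP1 mRNA, PERK slows translation, and ATF6 is released as a transcription factor. Myeloma cells are known for their dependence on this system, which is one reason why proteasome inhibitors are used against them.

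Many UPR genes carry a short element near their start to which ATF6 and XBP1 are known to bind. RefSeq windows from 250 bases before to 50 bases after the annotated start (GRCh38.p14) were held for 46 of the 50 genes and were searched on both strands for 3 motifs. The ER stress response element (ERSE) was searched as CCAAT and CCACG with 9 bases between them, ERSE-II as ATTGG and CCACG with 1 base between them, and the unfolded protein response element (UPRE) as TGACGTGG. ERSE stood in the windows of 8 of the 46 genes (17.4%) against 0.0916% of all 27305 genes with a window, ERSE-II in 3 (6.52%, against 0.0696%) and UPRE in 4 (8.7%, against 0.927%). The motifs are known from UPR genes and the genes were listed as such, so higher shares were to be expected and are not a result. A match is a description of the letters in the window and not a measured binding site. An ERSE or ERSE-II match is shown for each gene tested that held one, with both ERSE matches of HSP90B1, because the expression values that follow concern these genes, each read 5′ to 3′ on the strand of the gene, with the motif in capitals.
HSPA5 (chr9:125241386-125241414, minus strand, forward ERSE): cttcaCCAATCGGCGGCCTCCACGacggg
HSP90B1 (chr12:103930211-103930239, plus strand, forward ERSE): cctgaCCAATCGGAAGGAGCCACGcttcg
HSP90B1 (chr12:103930316-103930344, plus strand, reverse ERSE): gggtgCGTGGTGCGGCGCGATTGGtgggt
CALR (chr19:12938379-12938407, plus strand, reverse ERSE): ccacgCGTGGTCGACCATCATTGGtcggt
CANX (chr5:179698773-179698801, plus strand, forward ERSE): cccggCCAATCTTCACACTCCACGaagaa
PDIA6 (chr2:10812848-10812876, minus strand, forward ERSE): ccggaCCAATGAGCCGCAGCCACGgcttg
XBP1 (chr22:28800598-28800626, minus strand, forward ERSE): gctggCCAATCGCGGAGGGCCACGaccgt
CRELD2 (chr22:49918549-49918577, plus strand, reverse ERSE): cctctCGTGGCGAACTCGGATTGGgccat
HERPUD1 (chr16:56932016-56932044, plus strand, forward ERSE-II): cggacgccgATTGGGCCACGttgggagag
SDF2L1 (chr22:21642105-21642133, plus strand, reverse ERSE-II): cctcggaagCGTGGACCAATcaaaaccct
HYOU1 (chr11:119057265-119057293, minus strand, reverse ERSE-II): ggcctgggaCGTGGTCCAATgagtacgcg
The first base of the motif lay 66 bases before the RefSeq start in HSPA5, 52 bases in XBP1 and 117 bases in HERPUD1. The RefSeq starts can differ from the gene bounds in the deposited table, as for HERPUD1. By those bounds, the matches of HSP90B1, CANX, PDIA6 and CRELD2 shown here lay inside the gene. HSP90B1 held 2 ERSE matches, and HYOU1 held 2 ERSE-II matches, of which the other overlapped its UPRE match. The remaining ERSE match was in ERO1B, and the remaining UPRE matches were in SSR3, SSR4 and VCP.

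The 6 libraries held 14439217 to 16465026 reads on genes, worked back from the FPKM values and the gene lengths. PRMT1 was 61.7, 62.8 and 59.0 FPKM in the control libraries and 13.3, 14.0 and 12.5 FPKM in the PRMT1 KD libraries, 21.7% of the control mean with all KD libraries below all control libraries, as the labels have it. All 9 plasma cell markers, of which XBP1 and MZB1 are also among the 50 genes, had a mean of at least 1 FPKM (sum of 1330 to 1410 FPKM in control and 1310 to 1490 FPKM in PRMT1 KD), while MS4A1, CD8A, FCGR3A and COL1A2, which mark B cells, T cells, myeloid cells and stroma, were listed at 0 in every library. Among the plasma cell markers, SLAMF7, a surface receptor, fell from 38.0 ± 0.961 to 23.8 ± 1.17 FPKM (SD, n = 3 each, log2 fold change -0.65, limma adjusted p = 0.00515), past any of the 49 ER genes tested, and its part in their values was not tested. The B cell list summed to at most 3.29 FPKM and the myeloid and stromal lists to less than 1 FPKM in every library. Of the T cell list, CD3E (33.4 FPKM in control and 38.1 FPKM in PRMT1 KD) and CD4 (38.2 and 40.4 FPKM) were expressed, and the other 3 genes were below 1 FPKM on average.

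The ER genes were among the abundant mRNAs of these cells. The median of their control means was 49.99 FPKM over the 49 genes tested, against 6.25 FPKM over all 13585 genes tested, and 12 of them were above 100 FPKM. By control mean, XBP1 (286.6 ± 4.81 FPKM, SD, n = 3), HSPA5 (260.0 ± 9.88 FPKM), HSP90B1 (245 ± 17.9 FPKM), CALR (231 ± 7.92 FPKM) and CANX (212 ± 0.838 FPKM) were highest. In this order the control libraries of each gene overlapped those of the next in the cases of HSPA5 and HSP90B1 and of HSP90B1 and CALR, and did not overlap between XBP1 and HSPA5 or between CALR and CANX. The lowest of the genes tested was DERL3 (2.09 ± 0.141 FPKM), a member of the derlin family, with a mean of 144.7 reads per library. ERO1B, an oxidase that recharges protein disulfide isomerases, was listed at 0 in all 6 libraries, where 3 reads would have given 0.0338 to 0.0389 FPKM, and GPR137B, which overlaps it on the opposite strand, was listed at 0 as well. Together the 50 genes summed to 3776, 3758 and 3701 FPKM in the control libraries, 1.26% to 1.27% of all FPKM, and to 3511, 3587 and 3678 FPKM in the PRMT1 KD libraries, 1.21% to 1.24%. Each of the 3 PRMT1 KD sums lay below each of the control sums. In these bulk samples, fewer cells with a given mRNA and less of that mRNA per cell cannot be told apart.

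To ask whether PRMT1 knockdown changed this system, the libraries were compared with limma on log2(FPKM + 1) over all 13585 genes tested, with Benjamini-Hochberg adjustment. On this scale, fold changes of weakly expressed genes come out too small. HERPUD1 and SELENOS, both of ERAD, fell with an adjusted p under 0.05, and no gene of the 49 rose past that limit. These 2 genes are 4.08% of the 49, against 2.05% of all genes tested. On the reads worked back, limma's voom called 10 of the 49 (20.4%), against 6.54% of all genes tested, and the fits that each left out 1 library called 0 or 1. None of the 49 genes changed by 1.5-fold. Log2 fold changes ran from -0.40 for SELENOS to 0.29 for ERO1A, with a median of -0.083, against 0.0095 for all genes tested, and 33 of the 49 were negative and 16 positive. At an unadjusted p under 0.05, 13 of the 49 genes (26.5%) were lower, against 9.47% of all genes tested, and 6 (12.2%) were higher, against 10.1%. With each library scaled to the same median, these counts were 16 lower and 3 higher, against 11.3% and 8.15% of all genes tested. With voom they were 20 and 4, against 12% and 10.1%, and after rescaling to TPM 12 and 6, against 8.1% and 12.2%. The 3 PRMT1 KD libraries lay below the 3 control libraries in 16 of the 49 genes (32.7%), against 12.3% of all genes tested, and above them in 6 (12.2%), against 13.6%. The ER genes had more reads than most genes, and the part of read depth in these shares was not tested. The per-library median difference from the control mean was -0.11, -0.081 and -0.022 in PRMT1 KD replicates 1, 2 and 3, and 37, 34 and 27 of the 49 genes lay below their control mean there. In control replicates 1, 2 and 3 it was 0.014, 0.013 and -0.025, with 19, 18 and 36 genes below, so PRMT1 KD replicate 3 and control replicate 3 had medians on the same side at about the same distance.

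**Figure D1:**
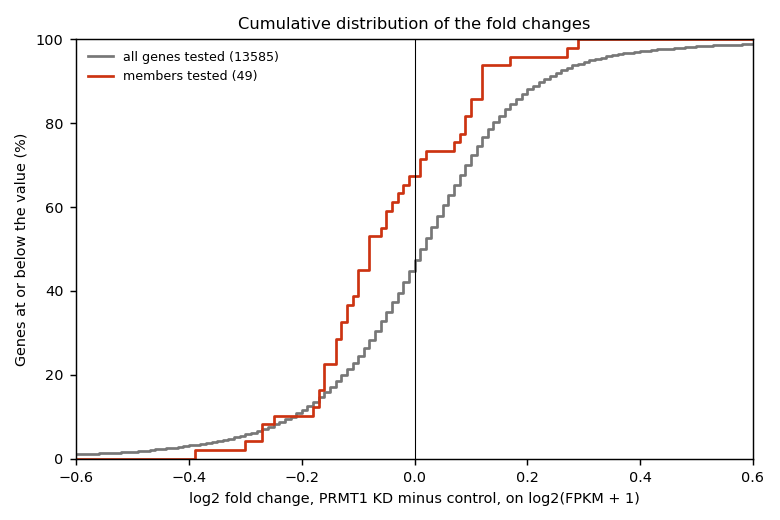
Cumulative share of genes (y axis, in %) at or below each log2 fold change (x axis, PRMT1 KD minus control on log2(FPKM + 1)) for the 49 ER genes tested (red) and all 13585 genes tested (grey). The red line runs left of the grey line around 0, with a median of -0.083 against 0.0095, and spans only -0.40 to 0.29.

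Among the genes of ERAD, HERPUD1 and SELENOS passed the test, 2 of 12 genes, against 2.05% of all genes tested. Of the 12, 9 were negative, against 47.4% of all genes tested, with a median log2 fold change of -0.082. At an unadjusted p under 0.05, 4 were lower and 1 higher, against 9.47% and 10.1% of all genes tested. HERPUD1 encodes an ER membrane protein that helps to organize the HRD1 ubiquitin ligase complex. It is listed under ENSG00000051108 on chromosome 16 from 56932048 to 56944863 (GRCh38, plus strand). Its level was 119.7, 119 and 117 FPKM in the control libraries and 96.1, 97.2 and 93.0 FPKM in the PRMT1 KD libraries. The groups lay far apart relative to their spread, and the PRMT1 KD mean was 80.5% of the control mean. This gave a log2 fold change of -0.31 with a standard error of 0.0385 and a 95% confidence interval of -0.40 to -0.22 (limma adjusted p = 0.024). With 3 libraries against 3, the exact permutation test (two-sided) cannot go below p = 0.1, which is the value it gave. HERPUD1 kept an adjusted p under 0.05 without control replicate 3 (0.0496) and lost it without any of the other 5 libraries (0.0627 to 0.134), while its log2 fold change stayed between -0.32 and -0.29.

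SELENOS encodes a selenoprotein of the ER membrane that binds the ATPase VCP and the derlins, and it is listed under ENSG00000131871 on chromosome 15 from 101270817 to 101277500 (GRCh38, minus strand). Its level was 15.2, 16.1 and 15.3 FPKM in the control libraries and 12.04, 10.8 and 11.8 FPKM in the PRMT1 KD libraries, without overlap. PRMT1 KD stood on average at 74.6% of control, the lowest share of the 49 genes. This gave a log2 fold change of -0.40 with a standard error of 0.0575 and a 95% confidence interval of -0.53 to -0.26 (limma adjusted p = 0.0322). Its adjusted p was between 0.0694 and 0.142 in all 6 fits that left out 1 library, with log2 fold changes from -0.42 to -0.35.

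The other ERAD genes did not pass an adjusted p of 0.05 in limma, and SYVN1 passed it in voom (adjusted p = 0.0435). SYVN1, the ubiquitin ligase HRD1 itself, was 23.2, 23.3 and 22.6 FPKM in control and 20.3, 20.5 and 19.9 FPKM in PRMT1 KD, with -0.18 as log2 fold change (limma adjusted p = 0.0861). SYVN1 overlaps FAU on the same strand, a gene with 4838 to 6016 reads against a mean of 1893 for SYVN1, and the treatment of shared reads is not given. OS9, a lectin that selects misfolded glycoproteins, was 36.1, 36.2 and 35.2 FPKM in control and 33.0, 32.0 and 31.8 FPKM in PRMT1 KD (log2 fold change -0.15, limma adjusted p = 0.115). For both genes every PRMT1 KD library lay below every control library.
SEL1L, the partner that stabilizes HRD1, was 146.6, 144 and 162 FPKM in control and 139, 143 and 155 FPKM in PRMT1 KD, with overlapping groups. The ATPase VCP, which pulls proteins out of the membrane, was 56.0 ± 2.44 FPKM in control and 54.8 ± 1.00 FPKM in PRMT1 KD (SD, n = 3 each). The 95% confidence interval of its log2 fold change ran from -0.14 to 0.079. EDEM1, EDEM2 and EDEM3, which trim or recognize mannose on misfolded glycoproteins, had log2 fold changes of -0.055, -0.11 and 0.0076. Of the derlins, which form part of the exit channel, DERL3 was 2.23, 2.09 and 1.95 FPKM in control and 2.95, 2.60 and 2.61 FPKM in PRMT1 KD, with 0.27 as log2 fold change, opposite in sign to HERPUD1 and SELENOS (limma adjusted p = 0.149). DERL3 overlaps SMARCB1 on the opposite strand, which had 1281 to 1793 reads against at most 185 for DERL3, and the use of strand in counting is not given. DERL1 and DERL2 had log2 fold changes of 0.073 and -0.12 with overlapping groups. All 3 PRMT1 KD libraries lay below all control libraries in EDEM1, though by little.

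**Figure D2:**
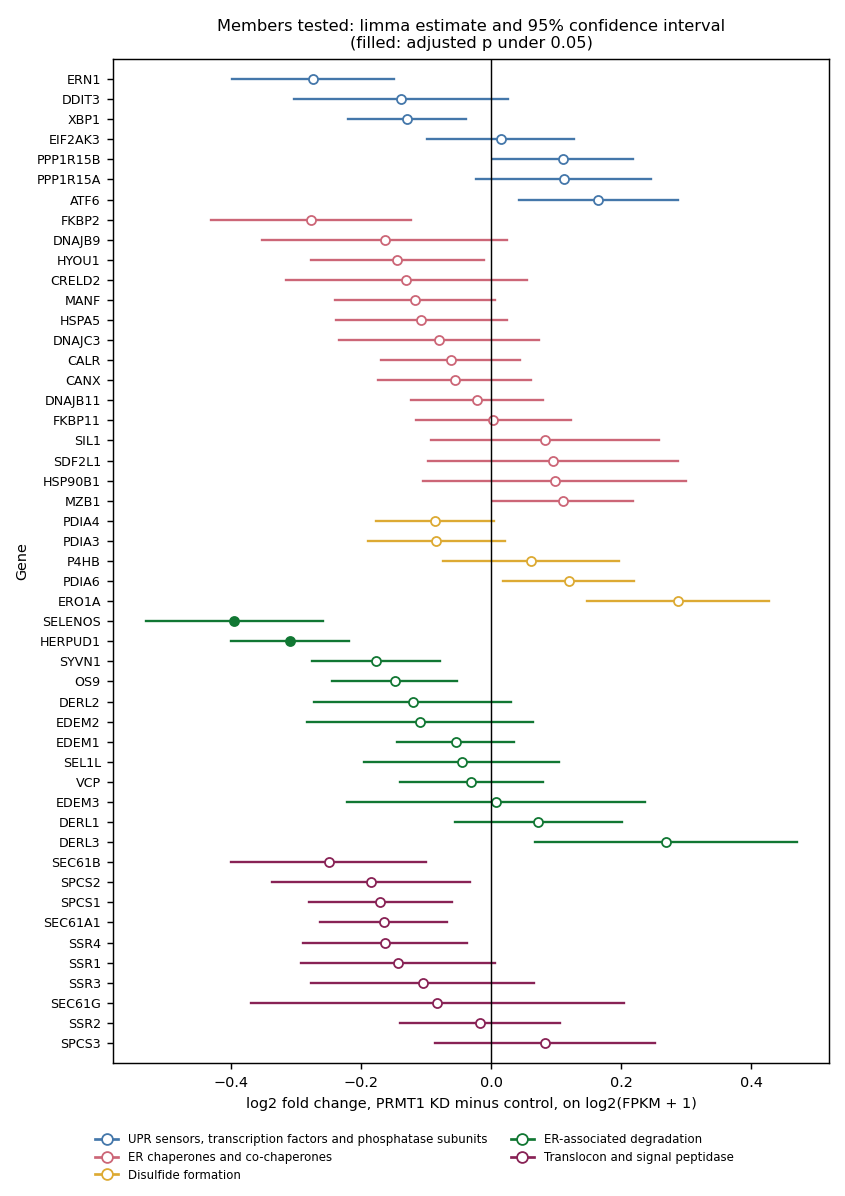
Log2 fold change (x axis, PRMT1 KD minus control on log2(FPKM + 1)) with its 95% confidence interval from limma for each of the 49 ER genes tested (y axis), grouped by role in colour, n = 3 libraries per group. Filled points mark an adjusted p under 0.05, which HERPUD1 (-0.31) and SELENOS (-0.40) reach. The intervals of 11 further genes, 5 of them of the translocon and signal peptidase, lie below 0 and those of 6 genes, with ERO1A (0.29) the highest, lie above 0 without an adjusted p under 0.05.

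Of the UPR sensors and their effectors, 0 of 7 passed an adjusted p of 0.05 in limma, and 4 of 7 had an unadjusted p under 0.05, 2 of them lower and 2 higher, against 9.47% and 10.1% of all genes tested. ERN1 and XBP1 passed an adjusted p of 0.05 in voom on the reads worked back, where 6.54% of all genes tested did. ERN1, which encodes the sensor IRE1, was 61.9, 57.1 and 56.5 FPKM in the control libraries and 49.6, 48.9 and 46.1 FPKM in the PRMT1 KD libraries. Each PRMT1 KD library lay below each control library, and the mean was 82.4% of control. On the log2 scale this was -0.27 with a standard error of 0.0528, and the limma adjusted p of 0.0551 was just outside the limit, while voom on the reads worked back gave an adjusted p of 0.00402. The 95% confidence interval ran from -0.40 to -0.15.
XBP1, the transcription factor whose mRNA IRE1 splices, was 284, 292 and 284 FPKM in control and 258, 268 and 260.0 FPKM in PRMT1 KD, 91.4% of the control mean without overlap (log2 fold change -0.13, limma adjusted p = 0.133). Values per gene do not separate spliced from unspliced XBP1, so the activity of IRE1 could not be read from them. ATF6 was 27.9, 28.0 and 27.4 FPKM in control and 29.6, 31.3 and 33.1 FPKM in PRMT1 KD, higher in each PRMT1 KD library than in any control library (log2 fold change 0.16, limma adjusted p = 0.147). ERN1 and ATF6 thus lay on opposite sides of control. The adjusted p of ERN1 was also under 0.05 with a filter of at least 5 FPKM (0.0288) and with quantile normalization (0.0478), and it reached 0.196 with 1 library left out.
EIF2AK3, the sensor PERK, was 42.6, 44.4 and 46.1 FPKM in control and 43.4, 45.0 and 46.2 FPKM in PRMT1 KD. The groups overlapped, and the 95% confidence interval of the log2 fold change was -0.099 to 0.13. DDIT3, which encodes the stress-induced transcription factor CHOP, was 45.9, 40.6 and 42.04 FPKM in control and 35.7, 39.9 and 40.8 FPKM in PRMT1 KD (log2 fold change -0.14, limma adjusted p = 0.327). The groups of DDIT3 overlapped, and it shares its locus with MARS on the opposite strand, which had 6973 to 8160 reads against at most 993 for DDIT3. PPP1R15A and PPP1R15B, phosphatase subunits that undo the translation block set by PERK, had log2 fold changes of 0.11 each. PPP1R15B did not overlap between the groups (27.8, 28.5 and 26.9 FPKM against 30.5, 29.1 and 30.6 FPKM), PPP1R15A did, and neither passed the adjusted limit (limma adjusted p = 0.243 and 0.337).

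**Figure D3:**
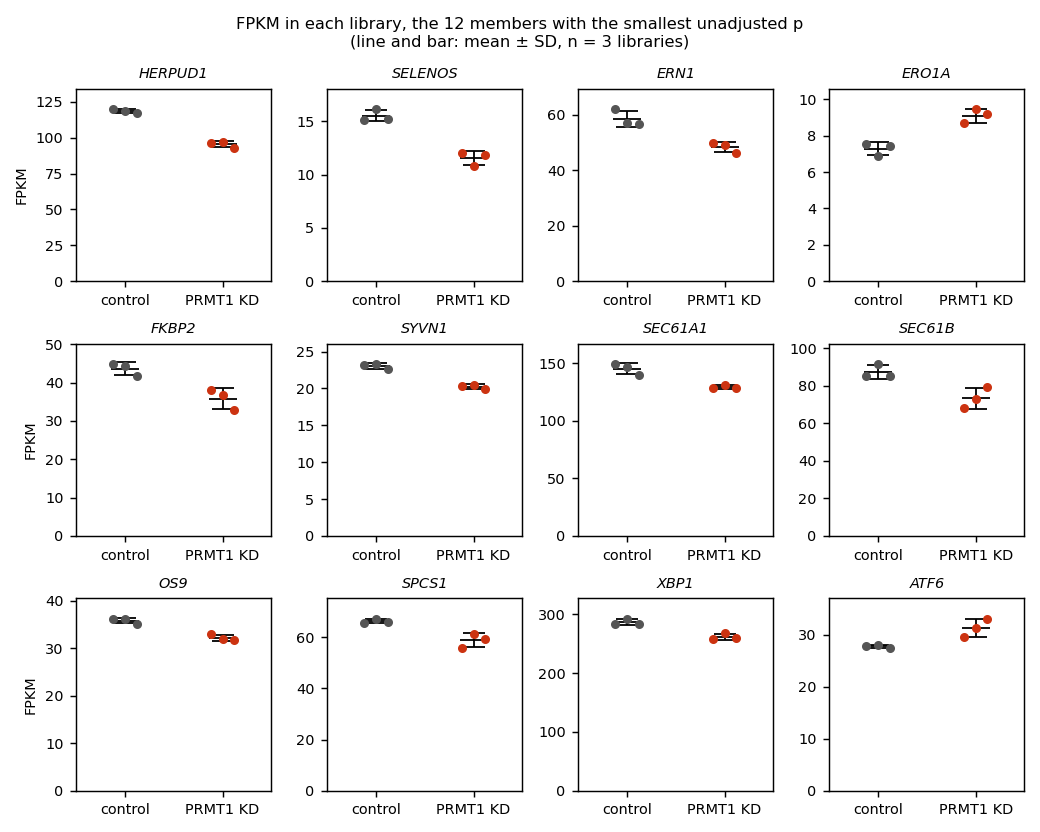
FPKM (y axis, from 0) in each control (grey) and PRMT1 KD (red) library for the 12 ER genes with the smallest unadjusted p, with mean ± SD (n = 3 libraries). In HERPUD1 the control libraries lie at 117 to 119.7 FPKM and the PRMT1 KD libraries at 93.0 to 97.2 FPKM. In each of the 12 genes the groups do not overlap, which follows largely from their choice by p and is not a result. Of all genes tested, 12.3% were lower and 13.6% higher in PRMT1 KD without overlap.

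The translocon and signal peptidase genes stood mostly on the lower side. Of the 10 genes, 9 were negative and 5 had an unadjusted p under 0.05, all 5 lower, with a median log2 fold change of -0.15. Of all genes tested, 47.4% were negative and 9.47% were lower at an unadjusted p under 0.05. Under the alternatives run, this median lay between -0.18 and -0.12, and 7 to 9 of the 10 genes were negative. In the summed FPKM of the 10 genes, the control libraries had 686.0, 696.0 and 692.3 and the PRMT1 KD libraries 600.4, 628.8 and 662.6. None of the 10 passed an adjusted p of 0.05 in limma. In voom on the reads worked back 3 passed it, SEC61A1, SEC61B and SPCS1, against 6.54% of all genes tested.
SEC61A1, the pore-forming subunit of the SEC61 channel, was 149, 147 and 140.0 FPKM in control and 128, 131 and 129 FPKM in PRMT1 KD (log2 fold change -0.16, limma adjusted p = 0.0979). SEC61B, a small subunit of the same channel, was 85.2, 91.5 and 85.3 FPKM in control and 68.1, 72.8 and 79.1 FPKM in PRMT1 KD (log2 fold change -0.25, limma adjusted p = 0.0999). SEC61G, the remaining subunit, was 48.0, 51.3 and 56.3 FPKM in control and 43.3, 45.4 and 59.3 FPKM in PRMT1 KD. PRMT1 KD replicate 3 held the highest SEC61G value of all 6 libraries, and the 95% confidence interval of its log2 fold change was wide, from -0.37 to 0.20.
Of the signal peptidase subunits, SPCS1 was 65.6, 67.0 and 65.8 FPKM in control and 55.7, 61.0 and 59.4 FPKM in PRMT1 KD (log2 fold change -0.17, limma adjusted p = 0.115). SPCS1 overlaps GLT8D1 (1685 to 2037 reads against a mean of 5285 for SPCS1) and NEK4 on the opposite strand, SEC61A1 overlaps RUVBL1 and MGLL, and SSR4 overlaps IDH3G. In all, 15 of the 50 genes had an overlapping gene or a pseudogene with more than 5% of their reads. SPCS2 was 51.2, 49.0 and 49.8 FPKM in control and 43.4, 40.6 and 47.9 FPKM in PRMT1 KD (log2 fold change -0.18, limma adjusted p = 0.179), and its pseudogene SPCS2P4 had 42 to 288 reads against a mean of 2232 for SPCS2. SPCS3 was the gene of this group on the higher side, at 33.3 ± 2.51 FPKM in control and 35.3 ± 2.37 FPKM in PRMT1 KD with overlapping groups. The TRAP complex, which sits beside the channel and helps some signal peptides to enter it, is encoded by SSR1 to SSR4. SSR4 was 64.8, 66.6 and 59.8 FPKM in control and 57.1, 58.3 and 54.8 FPKM in PRMT1 KD, without overlap (log2 fold change -0.16, limma adjusted p = 0.158). SSR1 and SSR3 had log2 fold changes of -0.14 and -0.11 with overlapping groups, and SSR2 one of -0.017.

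The chaperones held 15 of the 50 genes, with a median log2 fold change of -0.062. Of these 15, 10 were negative, against 47.4% of all genes tested, and 5 positive. At an unadjusted p under 0.05, 2 were lower and 1 higher, against 9.47% and 10.1% of all genes tested. None passed an adjusted p of 0.05 in limma. In voom 1 of the 15, FKBP2, passed it (adjusted p = 0.0281), against 6.54% of all genes tested. HSPA5 (BiP), the main Hsp70 of the ER, was 270.3, 259 and 251 FPKM in control and 228, 240.4 and 256 FPKM in PRMT1 KD. The highest PRMT1 KD library lay above the lowest control library, and the 95% confidence interval of the log2 fold change was -0.24 to 0.024 (limma adjusted p = 0.342). HSP90B1 (GRP94), the Hsp90 of the ER, was 241, 229 and 265 FPKM in control and 245, 249.8 and 294 FPKM in PRMT1 KD. Its groups overlapped, on the opposite side of 0 from HSPA5 (log2 fold change 0.098, limma adjusted p = 0.572).
The lectin chaperones CALR and CANX, which hold glycoproteins while they fold, had log2 fold changes of -0.062 and -0.056. CANX was 213, 211 and 212 FPKM in control and 193, 204 and 216 FPKM in PRMT1 KD, so the spread was wider in PRMT1 KD than in control. CALR was 234, 237 and 222 FPKM in control and 229, 215 and 221 FPKM in PRMT1 KD, with overlapping groups.
FKBP2, a peptidyl-prolyl isomerase of the ER, was the chaperone gene with the lowest log2 fold change, -0.28 (limma adjusted p = 0.0847). It was 44.8, 44.2 and 41.6 FPKM in control and 38.0, 36.7 and 32.7 FPKM in PRMT1 KD, without overlap. FKBP11, a second isomerase of the same family, was 31.3 ± 1.32 FPKM in control and 31.3 ± 1.09 FPKM in PRMT1 KD, and the 95% confidence interval of its log2 fold change ran from -0.12 to 0.12. HYOU1, which exchanges the nucleotide of BiP, was 124, 120.2 and 114 FPKM in control and 112, 111 and 101 FPKM in PRMT1 KD, without overlap (log2 fold change -0.14, limma adjusted p = 0.222), while SIL1, with the same task, had a log2 fold change of 0.083 and overlapping groups. MZB1, a partner of immunoglobulin assembly found in B cells and plasma cells, was 91.8, 96.3 and 90.9 FPKM in control and 103.8, 100.9 and 96.8 FPKM in PRMT1 KD, higher in each PRMT1 KD library than in any control library (log2 fold change 0.11, limma adjusted p = 0.243). SDF2L1, DNAJB9, DNAJB11, DNAJC3, MANF and CRELD2, which assist BiP or are secreted under stress, overlapped between the groups in each case, with log2 fold changes from -0.16 for DNAJB9 to 0.095 for SDF2L1. Of these, CRELD2 was at the lowest level, at 4.43 ± 0.34 FPKM in control and 3.96 ± 0.29 FPKM in PRMT1 KD.

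In disulfide formation, ERO1A, the oxidase that passes electrons from protein disulfide isomerases to oxygen, had the highest log2 fold change of all 49 genes on this scale. It was 7.53, 6.89 and 7.44 FPKM in control and 8.69, 9.45 and 9.19 FPKM in PRMT1 KD, 125% of the control mean without overlap. The log2 fold change was 0.29 (standard error 0.0591, 95% confidence interval 0.15 to 0.43), with a limma adjusted p of 0.0629, and of 0.0198 in voom on the reads worked back. By the ratio of means DERL3 was higher, at 130.3% of its control mean. In voom the log2 fold change of DERL3 was 0.36 (adjusted p = 0.116), against 0.30 for ERO1A. PDIA6, a protein disulfide isomerase, was 132, 128 and 123 FPKM in control and 136, 139.8 and 141 FPKM in PRMT1 KD, higher without overlap (log2 fold change 0.12, limma adjusted p = 0.187).
PDIA3 and PDIA4, of the same family, lay on the other side, with every PRMT1 KD library below every control library. PDIA3 was 109, 112 and 108 FPKM in control and 98.8, 106 and 105 FPKM in PRMT1 KD, and PDIA4 was 84.5, 84.8 and 81.6 FPKM in control and 78.3, 78.0 and 79.8 FPKM in PRMT1 KD. Their log2 fold changes were -0.084 and -0.087, with limma adjusted p = 0.35 and 0.275. P4HB, the most abundant isomerase here, was 199 ± 13.5 FPKM in control and 208 ± 4.81 FPKM in PRMT1 KD (SD, n = 3 each) with overlapping groups.

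**Figure D4:**
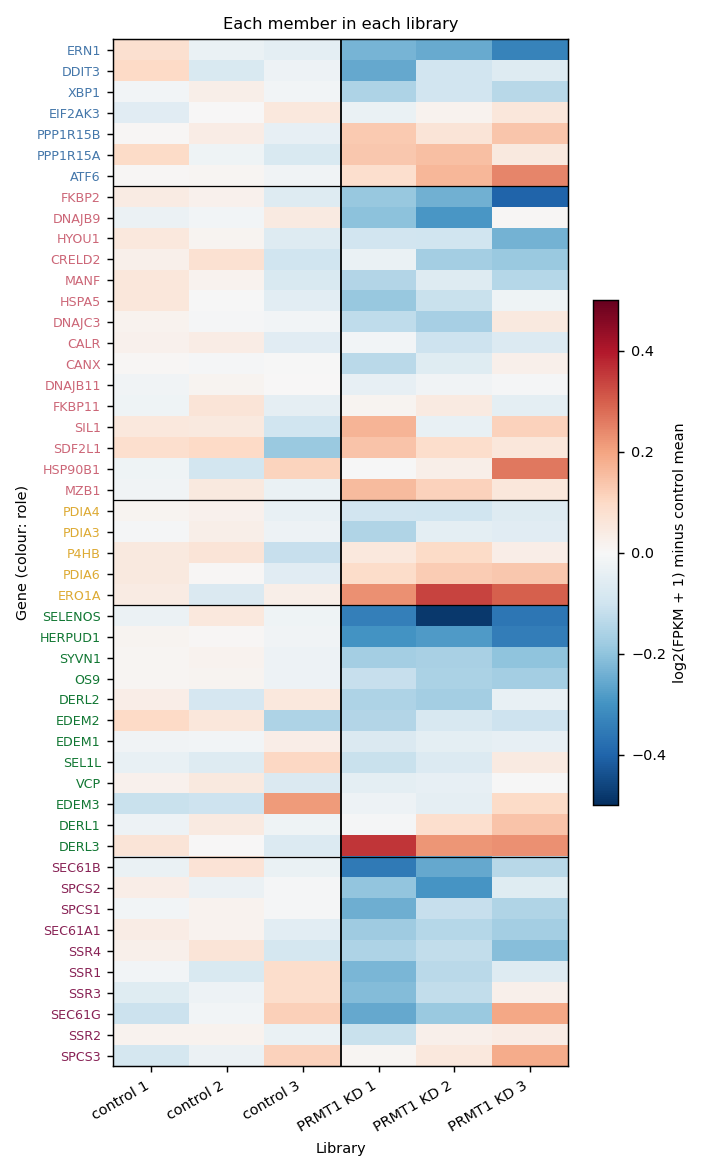
Difference of each ER gene (rows, coloured by role) from its control mean on log2(FPKM + 1) in each library (columns), in blue where lower and red where higher. In PRMT1 KD replicate 3, SEC61G, SSR2, SSR3 and SPCS3 of the translocon and signal peptidase are above their control mean, and SELENOS and HERPUD1 are blue in all 3 PRMT1 KD libraries.

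Fold changes of genes with and without an ERSE or ERSE-II match were set side by side. The 10 with a match that were tested had a median log2 fold change of -0.085, from -0.31 to 0.12, and the 35 tested genes with a window but without such a match had one of -0.083, from -0.40 to 0.29. HERPUD1 was the only gene of the 10 with an adjusted p under 0.05, and SELENOS, the other gene to pass, held no match. HYOU1 and SDF2L1, which like HERPUD1 hold ERSE-II, had log2 fold changes of -0.14 and 0.095. The 4 genes with a UPRE match were all negative, with a median of -0.125. Of the 41 without one, 27 were negative, with a median of -0.08. With any of the motifs the median was -0.105 in 13 genes, against -0.0814 in the 32 without. These differences were not tested.

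Other genes of the ER and of pathways linked to it were counted from 8 further lists, of which 113 genes were tested. Some, such as NFYA, TRAF2 and ATF4, do not encode proteins of the ER. Of the 113 genes, 6 rose and 1 fell with a limma adjusted p under 0.05. Of all 13585 genes tested, 145 rose and 134 fell (2.05% together). The median log2 fold change of the 113 was -0.0083, with 63 negative and 50 positive, against 47.4% negative of all genes tested. At an unadjusted p under 0.05, 14 were lower and 16 higher, against 9.47% and 10.1% of all genes tested. In voom, 10 were lower and 9 higher with an adjusted p under 0.05, against 6.54% of all genes tested in either direction. Among 25 further ERAD and glycan quality control genes, 3 rose and none fell with a limma adjusted p under 0.05. GANAB, the catalytic subunit of glucosidase II, which trims glucose from glycoproteins, rose from 109.6 ± 6.61 to 156 ± 4.31 FPKM (SD, n = 3 each), with 0.50 as log2 fold change (limma adjusted p = 0.0154). ERLIN1, an ER membrane scaffold, rose from 7.30 ± 0.352 to 10.7 ± 0.665 FPKM (log2 fold change 0.49, limma adjusted p = 0.0263), and the mannosidase MAN1A1 rose from 181 ± 6.70 to 229 ± 5.57 FPKM (log2 fold change 0.34, limma adjusted p = 0.0265).
Of 12 further thiol oxidoreductases, PRDX4, a peroxiredoxin of the ER that like ERO1A oxidizes protein disulfide isomerases, rose from 59.8, 61.8 and 57.3 FPKM to 81.5, 86.2 and 85.8 FPKM (log2 fold change 0.50, limma adjusted p = 0.0121). Of 15 further translocation genes, SEC61A2, a paralog of SEC61A1 at a lower level, rose from 8.49 ± 0.143 to 11.2 ± 0.288 FPKM (log2 fold change 0.36, limma adjusted p = 0.0286), while SEC61A1 was on the lower side. Of 20 genes of ER export and retrieval, TMED10, a cargo receptor of transport vesicles, fell from 88.9 ± 2.48 to 68.0 ± 3.38 FPKM (log2 fold change -0.38, limma adjusted p = 0.0263). Of 10 genes of ATF6 processing and the CREB3 family, the membrane-bound transcription factor CREB3L4 rose from 21.7 ± 0.861 to 27.2 ± 0.741 FPKM (log2 fold change 0.32, limma adjusted p = 0.0365). With 1 library left out, PRDX4 kept a limma adjusted p under 0.05 in 4 of 6 fits, GANAB, ERLIN1 and MAN1A1 in 1 of 6 (without control replicate 3), and SEC61A2, TMED10 and CREB3L4 in 0 of 6, with values of up to 0.142 and the same sign throughout.
Of 12 oligosaccharyltransferase genes, 9 were negative, against 47.4% of all genes tested, and none passed the adjusted limit in limma. In voom 2 passed it, against 6.54% of all genes tested. At an unadjusted p under 0.05, 4 were lower and 1 higher, against 9.47% and 10.1% of all genes tested. OST4 (log2 fold change -0.29, limma adjusted p = 0.0523) and TMEM258 (-0.31, limma adjusted p = 0.0861) were lowest in p. Of 11 genes listed with the PERK branch, none passed in limma and 1 did in voom, against 6.54% of all genes tested in voom. This list also holds EIF2AK1, EIF2AK2 and EIF2AK4, which encode kinases other than PERK. At an unadjusted p under 0.05, 2 of the 11 were lower and 0 higher, against 9.47% and 10.1% of all genes tested. CHAC1 (log2 fold change -0.35, limma adjusted p = 0.051) and EIF2AK1 (-0.13, limma adjusted p = 0.191) were lowest in p. Of 8 genes listed as partners of IRE1, none passed in limma. In voom 2 passed, 1 lower and 1 higher, against 6.54% of all genes tested. At an unadjusted p under 0.05, 1 of the 8 was lower and 1 higher, against 9.47% and 10.1% of all genes tested. These were BAK1 (log2 fold change -0.30, limma adjusted p = 0.068) and MAP3K5 (0.30, limma adjusted p = 0.0955), the lowest in p.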

How the data were processed

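RNA was extracted with TRIzol and sequenced by a company. FPKM is the unit of the table that the authors deposited, beside gene lengths and coordinates. The submitters' processing notes name featureCounts 1.5.0-p3 and hg38, and the aligner, annotation release and strand setting are not given in the sources used here. FPKM multiplied by length came out as whole reads (within 0.01) for 100% of the values above 0, and each library's divisor followed its median-of-ratios size factor, so the values already hold a scaling between libraries. All 50 genes had the same coordinates in GENCODE 29.

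Columns were mapped by name and description to the 3 control and 3 PRMT1 KD samples. Genes with a mean of at least 1 FPKM were tested with limma 3.58.1 in R 4.3.3 on log2(FPKM + 1), two-sided, with empirical Bayes moderation, a mean-variance trend and Benjamini-Hochberg adjustment over all genes tested. An exact permutation test was run on single genes. Depth was 14439217 to 16465026 reads per library, so genes with few reads are less precise.

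The genes, their roles, the further lists and the tests were chosen with earlier results of these data known. Values are given for genes with an adjusted p under 0.05, the 12 with the smallest unadjusted p, the 5 highest in FPKM, XBP1, ERN1, ATF6, EIF2AK3, DDIT3 and HSPA5, and genes under the filter, and, from each further list, for genes with an adjusted p under 0.05 or else the 2 with the smallest p. Other genes given with values complete the account of each role and were chosen after their values were seen, as were the sequences shown. Of 124 symbols in the further lists, 122 were found. The alternatives were a pseudocount of 0.1, a filter of none or of at least 5 FPKM on average, median scaling, TPM, quantile normalization, no trend, voom on the reads worked back, the replicate block and each library left out. RefSeq windows were read from GRCh38.p14.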

Additional observations from a re-analysis of the deposited data

How the results depend on the processing

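An adjusted p under 0.05 was reached by 279 of 13585 genes tested and by 2 of the 49 ER genes. These numbers moved with the settings (the cause was not tested). Without a filter they were 35 of 34078 and 0 of 49, and with a mean of at least 5 FPKM 473 of 7710 and 5 of 47. They were 43 of 13585 and 0 of 49 without the trend, and 889 of 13585 and 10 of 49 with voom on the reads worked back. With 1 library left out they were 13 to 95 and 0 to 1, the latter of 49. The 279 genes were 134 lower and 145 higher, against 139 and 82 with median scaling and 133 and 222 after rescaling to TPM. The median log2 fold change of the ER genes was below 0 in all 15 alternatives (-0.10 to -0.052). In either direction, 14 to 25 of them had an unadjusted p under 0.05, against 19 in the main fit. The shares of all genes tested moved too. They were 9.47% lower and 10.1% higher in the main fit, 11.3% and 8.15% with median scaling, 12% and 10.1% in voom and 8.1% and 12.2% after rescaling to TPM. Shares for the other alternatives are not given here. EIF2AK3, at 0.015, changed sign in 4 alternatives, to -0.0063 with median scaling, -0.0041 with voom, -0.014 without control replicate 1 and -0.0066 without PRMT1 KD replicate 3, within a range of -0.014 to 0.0416 when 1 library was left out. The other 17 ER genes followed through the alternatives, and PRMT1, kept their sign in all of them, and PRMT1 also kept its adjusted p under 0.05.

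Same-numbered libraries deviated from their group means with correlations of 0.02, 0.0631 and 0.101, so the numbers were not taken to pair the libraries, although each library correlated best with the library of its own number. A fit that took the replicate number as block gave 204 genes and 1 ER gene, HERPUD1 (limma adjusted p = 0.0437), that had an adjusted p under 0.05. SELENOS had 0.0577 and CREB3L4 0.0577 in that fit, and OST4 (0.0495) and CHAC1 (0.0437) passed. Depth limits mainly DERL3, CRELD2 and other genes with few reads.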
